A study of Bos taurus with 16 samples.

Results

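FGF1, FGF2, VEGFA and NDP are 4 secreted growth factors of blood vessel formation, and their transcripts were followed in the bovine corpus luteum of pregnancy and of the estrous cycle. They were found on the array by the gene name, accession or description of each spot, which gave 6 probes for the 4 genes among 6696 genes with a symbol. FGF1 has 1 probe, FGF2 and VEGFA have 2 each and NDP has 1. The samples were corpora lutea of 16 Japanese Black cows, taken after slaughter, with 4 cows on days 20-25 of pregnancy, 4 on days 40-45, 4 on days 150-160 and, as the non-pregnant group, 4 cyclic cows in mid-cycle (days 10-12). Day 1 was the day of artificial insemination, no group received an agent, and the age of the cows is not given in the sources used here. Total RNA of each gland was labelled with Cy3 and hybridised to its own single-colour array. A pregnant gland of these stages is also an older gland than a mid-cycle one, so the effects of pregnancy and of the age of the gland cannot be told apart.

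The corpus luteum forms from the ruptured follicle and becomes one of the most densely vascularised tissues of the body. VEGFA signals through the receptors FLT1 and KDR on endothelial cells and drives sprouting and permeability. FGF1 and FGF2 bind FGF receptors together with heparan sulfate and act on endothelial and many other cells. NDP encodes norrin, which in mouse and human retina activates beta-catenin signalling through FZD4, LRP5 and TSPAN12. In the cow, FGF2 and VEGFA are best known from vessel growth in the early gland.

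The probes are the physical readout of each gene, so their sequences are given as the deposited scanner files hold them, in lower case and without capitals because no base within them is singled out. Each is 60 bases long. They read as follows.
FGF1 probe ABR21: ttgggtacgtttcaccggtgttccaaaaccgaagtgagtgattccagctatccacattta
FGF2 probe A_73_102433: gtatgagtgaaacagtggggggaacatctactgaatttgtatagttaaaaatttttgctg
FGF2 probe ABR7076: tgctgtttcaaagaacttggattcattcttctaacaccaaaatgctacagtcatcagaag
VEGFA probe ABR7080: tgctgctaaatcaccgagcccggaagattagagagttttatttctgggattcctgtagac
VEGFA probe ABR7085: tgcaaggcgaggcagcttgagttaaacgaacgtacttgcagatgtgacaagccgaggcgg
NDP probe A_73_103029: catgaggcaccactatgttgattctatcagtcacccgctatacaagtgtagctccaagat

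The 2 VEGFA probes shared no run longer than 5 bases with each other, and neither did the 2 FGF2 probes, so each pair reads separate stretches of its gene. FGF1 and FGF2 belong to one family, but the FGF1 probe shared at most 7 bases in a row with either FGF2 probe. GC content was 45.0% for the FGF1 probe, 35.0% and 36.7% for the FGF2 probes, 45.0% and 55.0% for the VEGFA probes and 45.0% for the NDP probe. No other spot carried any of the 6 sequences.

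Levels are given as the log2 of a spot's processed signal minus the log2 of the 75th percentile of its array, so 0 is the 75th percentile and each step of 1 is a doubling. This level compares cows for one probe and does not rank different genes. The 75th percentile was between 2020 and 4288 signal units, and 71.9% to 79.6% of probes were well above background on an array. The arrays lay on 2 slides with 2 cows of each group on each, and both slides held a group at the same array positions, so the place of an array on its slide cannot be told apart from the group. Glands carried high signals of the steroidogenic markers STAR, CYP11A1 and HSD3B1 in every group. The cyclic cow with replicate number 2 stood apart: its summed endothelial marker level was 4.33, against 4.64 to 5.03 in the other cyclic cows, and its summed leukocyte marker level was 1.33, against -0.02 to 0.49. Values without this cow are given beside most ligand results, and beside other calls where leaving it out ended the call. Changes are differences of group means in limma's fit over all 16 arrays, and a probe is called when its p-value, adjusted over the 11943 tested probes by the Benjamini-Hochberg method, is under 0.05. The samples are separate cows.

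FGF1 was about 2 times higher in all 3 pregnancy stages than in cyclic glands, and its level did not differ detectably among the stages. On days 20-25 the 4 cows had levels of -2.10, -1.94, -1.83 and -2.16. On days 40-45 they had -1.85, -1.48, -1.82 and -2.18, and on days 150-160 they had -2.42, -1.65, -1.75 and -1.85. The cyclic cows had -3.12, -3.05, -3.35 and -2.72. All 12 pregnant cows lay above all 4 cyclic cows, and the least high of them, a cow of days 150-160, was 0.30 above the highest cyclic cow. A lack of overlap, here and below, describes the cows shown. How many of all tested probes separate the same groups was not counted.

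The mean FGF1 level was -2.01 ± 0.15 on days 20-25, -1.83 ± 0.29 on days 40-45 and -1.92 ± 0.35 on days 150-160, against -3.06 ± 0.26 in cyclic cows (SD, n = 4 each). The log2 change was 1.05 on days 20-25 (SE 0.19, limma adjusted p = 0.0315), which is 2.07-fold. It was 1.23 on days 40-45 (adjusted p = 0.00694, 2.34-fold) and 1.14 on days 150-160 (adjusted p = 0.00319, 2.20-fold). FGF1 was the only called probe of the 5 tested ligand probes on days 20-25, where 0.293% of all probes were called, and on days 40-45, where 1.23% were called. The F test over the 4 groups called it as well (adjusted p = 0.00618), in a test that called 3.86% of all probes.

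The FGF1 call on days 20-25 was near its threshold. It ended with median scaling (change 1.02, adjusted p = 0.0672), when only the 8 arrays compared were fitted (1.05, adjusted p = 0.0895) and when any of 7 single cows was left out, namely each of the 4 of days 20-25 and cyclic numbers 2, 3 and 4, up to an adjusted p of 0.118 without number 3 of days 20-25. Without the cyclic cow with number 2 the change was 1.06 (adjusted p = 0.0796). The calls on days 40-45 and 150-160 held without any single cow, with highest adjusted p-values of 0.0263 and 0.0122. Within slide 1 the changes were 1.06, 1.42 and 1.05 on days 20-25, 40-45 and 150-160, and within slide 2 they were 1.04, 1.04 and 1.23. With 2 cows a group none of these within-slide changes passed (adjusted p 0.11 to 0.451).

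Among the pregnancy stages, FGF1 differed by 0.17 on days 40-45 against days 20-25 (95% interval -0.24 to 0.58, adjusted p = 0.83). Days 150-160 differed from days 40-45 by -0.09 (-0.50 to 0.32, adjusted p = 0.953) and from days 20-25 by 0.09 (-0.32 to 0.50, adjusted p = 0.888). None of the 5 ligand probes was called between stages by limma. Of all probes, 0.0335%, 0.0419% and 1.57% were called for days 40-45 against 20-25, days 150-160 against 40-45 and days 150-160 against 20-25. At an unadjusted p under 0.05 the ligand probes numbered 1, 0 and 2 of 5 in these comparisons, beside 8.41%, 9.22% and 13.9% of all probes.

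**Figure D1:**
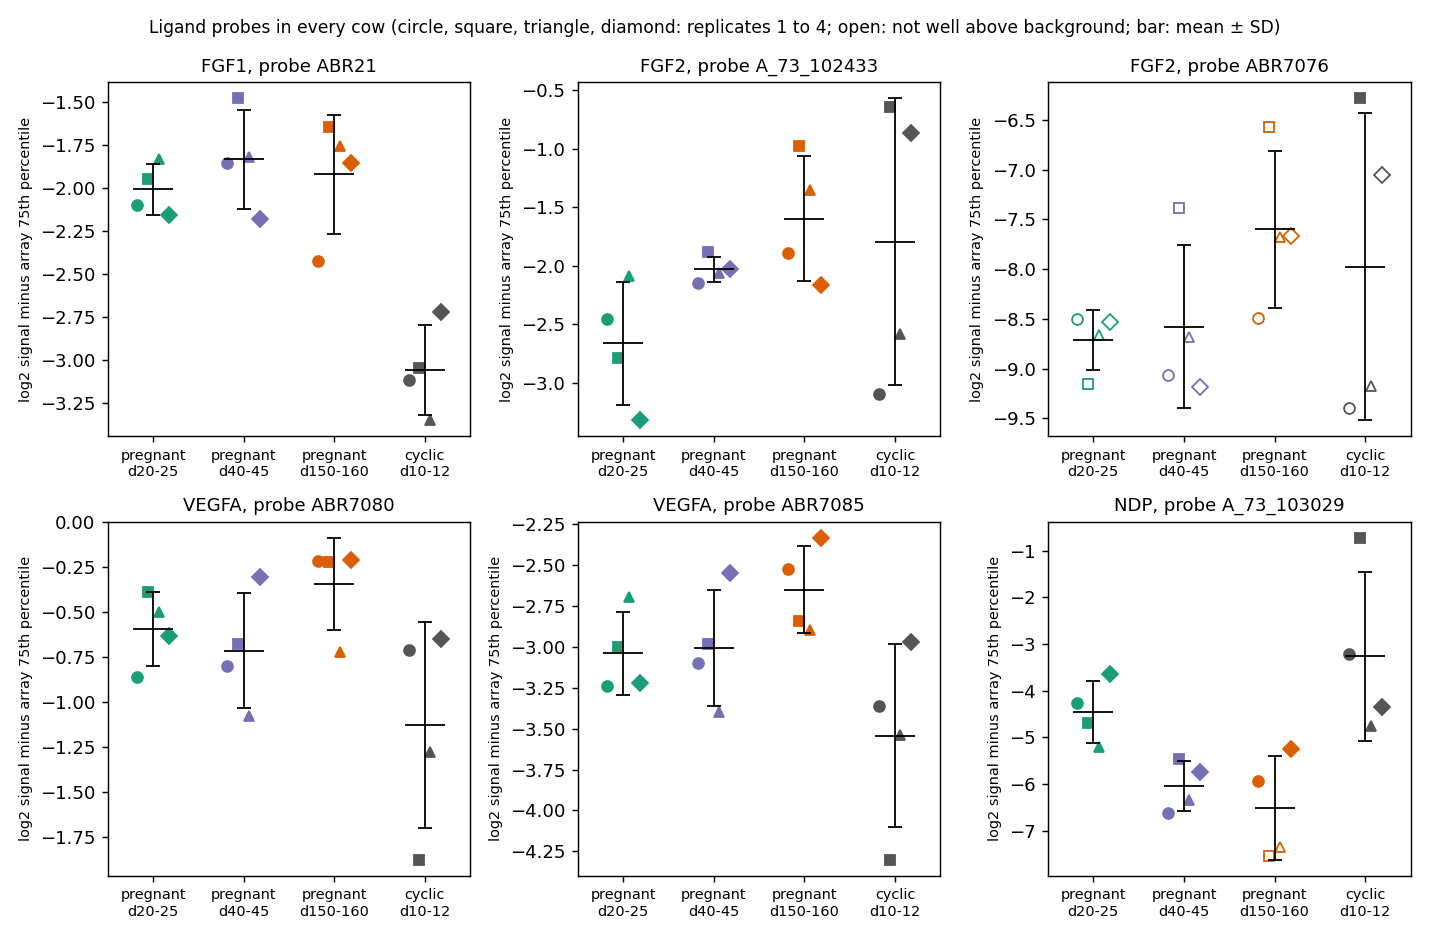
Level of each ligand probe in every cow, as log2 signal minus the array's 75th percentile, with the pregnancy stages from left to right and the cyclic cows at the right; bars are the group mean and SD (n = 4). All 12 pregnant cows lie above the 4 cyclic cows for FGF1, the cyclic cows split for FGF2, and NDP is lowest on days 40-45 and 150-160.

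FGF2, the other classical heparin-binding FGF, was not called in any comparison, and its cyclic cows were split far apart. Its only tested probe, A_73_102433, carries a description of similarity to human FGF2 and not FGF2 as its gene name. On probe A_73_102433 the levels were -2.46, -2.79, -2.09 and -3.32 on days 20-25, and -2.15, -1.88, -2.06 and -2.03 on days 40-45. On days 150-160 they were -1.89, -0.98, -1.35 and -2.16. The cyclic cows had -3.09, -0.64, -2.58 and -0.86. So 2 cyclic cows, 1 on each slide, were higher than every pregnant cow and the other 2 were as low as the cows of days 20-25, while the 4 cows of days 40-45 lay within 0.26 of each other.

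The mean FGF2 level was -2.66 ± 0.52 on days 20-25, -2.03 ± 0.11 on days 40-45 and -1.60 ± 0.53 on days 150-160, against -1.80 ± 1.23 in cyclic cows (SD, n = 4 each). The changes were -0.87 (95% interval -1.86 to 0.13, adjusted p = 0.413), -0.23 (-1.23 to 0.76, adjusted p = 0.891) and 0.20 (-0.80 to 1.20, adjusted p = 0.846). The interval on days 150-160 is wide enough to hold the change of FGF1 in that stage. The days 40-45 change had the opposite sign without either high cyclic cow, at 0.15 without number 2 and 0.08 without number 4. Without number 2 the changes on days 20-25 and 150-160 were -0.483 and 0.584. Between stages, FGF2 was higher by 1.07 on days 150-160 than on days 20-25 (unadjusted p = 0.0375), which did not pass after adjustment (adjusted p = 0.317).

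The second FGF2 probe, ABR7076, was well above background on 1 of 16 arrays, that of the cyclic cow with number 2, and was not tested. Its levels were between -9.16 and -8.50 on days 20-25, between -9.18 and -7.39 on days 40-45 and between -8.50 and -6.57 on days 150-160. In cyclic cows they were -9.39, -6.29, -9.17 and -7.05, so numbers 2 and 4 were again the high ones. Across the 16 arrays the 2 FGF2 probes correlated with r = 0.823, as a description of arrays that share groups and slides. The split of the cyclic cows is therefore present on both probes, although one of them was mostly below background.

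VEGFA, the principal endothelial mitogen of the set, was higher on average in every pregnancy stage on both probes, and passed the test for days 150-160 on 1 of the 2. On probe ABR7085 the levels were -3.24, -3.0, -2.69 and -3.22 on days 20-25 and -3.10, -2.98, -3.40 and -2.55 on days 40-45. On days 150-160 they were -2.52, -2.84, -2.90 and -2.33. The cyclic cows had -3.36, -4.30, -3.54 and -2.97. The cows of days 150-160 all lay above the cyclic cows, and the 2 earlier stages overlapped them.

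On ABR7085 the mean was -3.04 ± 0.25 on days 20-25, -3.01 ± 0.35 on days 40-45 and -2.65 ± 0.27 on days 150-160, against -3.54 ± 0.56 in cyclic cows (SD, n = 4 each). The days 150-160 change was 0.89 (SE 0.26, limma adjusted p = 0.0451, 1.86-fold), and the earlier changes were 0.51 (adjusted p = 0.389) and 0.54 (adjusted p = 0.352). Those earlier changes were 0.252 and 0.284 without the cyclic cow with number 2 (limma adjusted p 0.629 and 0.677). On days 150-160, 3 of the 5 ligand probes were called, those of FGF1, VEGFA and NDP, in a comparison that called 7.97% of all probes. The call is marginal: it ended under 15 of 28 alternatives, among them leaving out any cow of days 150-160, cyclic number 1, 2 or 3, or number 1 or 2 of either earlier stage. Without the cyclic cow with number 2, the lowest of all 16, the change was 0.64 (adjusted p = 0.103). Within slides 1 and 2 it was 1.15 and 0.64.

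Probe ABR7080 gave VEGFA levels of -0.86, -0.39, -0.50 and -0.64 on days 20-25 and -0.80, -0.68, -1.08 and -0.30 on days 40-45. On days 150-160 they were -0.21, -0.22, -0.72 and -0.21, and in cyclic cows -0.71, -1.88, -1.28 and -0.65. Here 1 cow of days 150-160 fell below 2 cyclic cows. The mean was -0.60 ± 0.21 on days 20-25, -0.71 ± 0.32 on days 40-45 and -0.34 ± 0.26 on days 150-160, against -1.13 ± 0.57 in cyclic cows (SD, n = 4 each). The changes of 0.53, 0.42 and 0.79 did not pass (adjusted p 0.352, 0.484 and 0.0661). Without the cyclic cow with number 2 they were 0.285, 0.166 and 0.539 (limma adjusted p 0.569, 0.85 and 0.151). The 2 VEGFA probes nevertheless moved closely together over the 16 arrays (r = 0.934), and they differ in which side of the threshold they fall on rather than in direction.

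NDP went the other way and had the widest range of the 4 ligands. Its levels were -4.26, -4.70, -5.20 and -3.64 on days 20-25 and -6.63, -5.47, -6.33 and -5.73 on days 40-45. On days 150-160 they were -5.92, -7.53, -7.34 and -5.24, and the 2 lowest of these were not well above background. The cyclic cows had -3.21, -0.73, -4.76 and -4.35. Cows of days 40-45 and of days 150-160 all lay below every cyclic cow and below every cow of days 20-25, while days 20-25 overlapped with the cyclic cows.

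The mean NDP level was -4.45 ± 0.66 on days 20-25, -6.04 ± 0.53 on days 40-45 and -6.51 ± 1.11 on days 150-160, against -3.26 ± 1.81 in cyclic cows (SD, n = 4 each). On days 150-160 the change was -3.25 (SE 0.73, limma adjusted p = 0.0157). On 2 of the 4 arrays of that stage the probe was not well above background, and with every value raised to at least its array's lowest signal well above background the change was -2.80 (adjusted p = 0.0209). On days 40-45 it was -2.78 (95% interval -4.34 to -1.21) and did not pass (adjusted p = 0.0808), although the groups did not overlap. On days 20-25 it was -1.19 (-2.75 to 0.38, adjusted p = 0.47). The F test over the 4 groups called NDP at an adjusted p of 0.049.

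The cyclic cow with number 2 was 2.49 above the next highest cyclic cow for NDP. Without it the changes were -0.34, -1.93 and -2.40 on days 20-25, 40-45 and 150-160, and the last still passed (adjusted p = 0.0227). Without the cow with number 2 of days 150-160, 1 of the 2 dim arrays, the days 150-160 change was -2.91 with an adjusted p of 0.05, which did not pass. Within slide 1, which holds that cow, the changes were -2.51, -4.08 and -4.76, and within slide 2 they were 0.13, -1.48 and -1.74. With normexp background correction, which compresses dim signals, the days 150-160 change was -1.71 (adjusted p = 0.058). The later stages against days 20-25 do not use the cyclic cows: NDP differed by -1.59 on days 40-45 (unadjusted p = 0.0469, adjusted p = 0.588) and by -2.06 on days 150-160 (unadjusted p = 0.0134, adjusted p = 0.201).

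**Figure D2:**
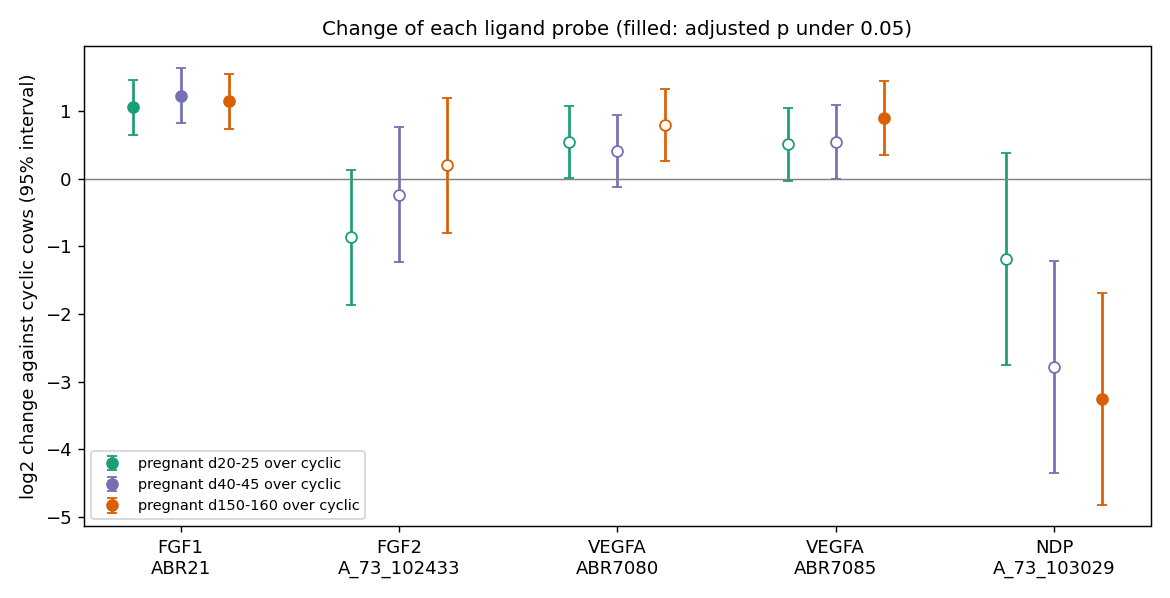
Log2 change of each tested ligand probe in the 3 pregnancy stages against cyclic cows, with 95% intervals of limma's fit; filled points have an adjusted p under 0.05. FGF1 sits at 1.05 to 1.23 in all stages with narrow intervals, and NDP is at -1.19, -2.78 and -3.25. VEGFA points are above 0 on both probes, but the intervals of ABR7080 on days 40-45 and of ABR7085 on days 20-25 and 40-45 include 0. All FGF2 intervals include 0, as does that of NDP on days 20-25.

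The ligands' directions were contrasted by taking, in each cow, the difference in level between 2 ligands and asking whether that difference moved with pregnancy. Probe A_73_102433 stood for FGF2 and ABR7080 for VEGFA. There were 18 such tests, 6 pairs in 3 stages, each a two-sided exact permutation test of 4 against 4 cows whose smallest possible p is 0.0286. FGF1 changed by 4.01 more than NDP on days 40-45 and by 4.39 more on days 150-160. VEGFA changed by 3.19 and 4.04 more than NDP in these stages, and FGF2 by 2.54 more than NDP on days 40-45. On days 150-160 NDP was well above background on 2 of 4 arrays, and its own change was -1.71 with normexp instead of -3.25. On days 20-25 FGF1 changed by 1.92 more than FGF2. In these 6 tests the groups did not overlap, the exact p was 0.0286 and the adjusted p was 0.0857, so none of the 18 passed after adjustment. A test at the smallest possible p could pass only if most of the 18 reached it. The failure to pass is therefore largely set by the 4 against 4 design and decides nothing about the differences. Without the cyclic cow with number 2, the highest for NDP and the lowest for VEGFA, FGF1 minus NDP was 3.16 on days 40-45 and 3.55 on days 150-160. VEGFA minus NDP was then 2.10 and 2.94, FGF2 minus NDP 2.08 on days 40-45, and FGF1 minus FGF2 1.54 on days 20-25. The groups still did not overlap in these 6 tests (exact permutation p = 0.0286, adjusted p = 0.0735).

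FGF1 changed by more than VEGFA in each stage, by amounts that did not pass: 0.52 on days 20-25 (exact permutation p = 0.143), 0.81 on days 40-45 (exact p = 0.0571, adjusted p = 0.103) and 0.35 on days 150-160 (exact p = 0.371). Without the cyclic cow with number 2 these were 0.771, 1.065 and 0.605. FGF2 against VEGFA gave -1.40, -0.65 and -0.59 (exact permutation p 0.114, 0.486 and 0.571), and -0.77, -0.017 and 0.045 without that cow. Both series carry the spread of the cyclic cows, whose SD was 0.53 for the difference of FGF1 and VEGFA and 1.55 for that of FGF2 and VEGFA. Across all 16 arrays FGF1 correlated with VEGFA at 0.52 and 0.55 on its 2 probes, and with NDP at -0.66. FGF2 correlated with FGF1 at 0.06. These r values describe arrays that share their groups and are not tests.

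The receptors and partners of these ligands were examined next, from lists that held 170 further genes, of which 93 were on the array with a symbol and 80 were tested, each counted by its brightest probe. On days 20-25 and on days 40-45 none of the 80 was called by limma, while 13 and 5 had an unadjusted p under 0.05, as had 14.1% and 14.7% of all probes. On days 150-160, 7 were called higher and 3 lower, 12.5% of those tested beside 7.97% of all probes (4.65% higher and 3.32% lower). The median change of the 80 genes on days 20-25, 40-45 and 150-160 was 0.14, -0.03 and 0.01, beside 0.05, 0.01 and 0.03 for all tested probes.

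Among FGF receptors, FGFR1 was higher on days 150-160. FGFR2 read lower there by a like amount on both of its spots and passed the test on 1. FGFR1, which binds both FGF1 and FGF2, averaged -4.49 ± 0.88 on days 150-160 and -5.93 ± 0.30 in cyclic cows (SD, n = 4 each), a change of 1.44 (adjusted p = 0.0216) that did not pass without the cyclic cow with number 1 (1.32, adjusted p = 0.054) or with normexp (0.85, adjusted p = 0.0508). FGFR2 has 2 spots with the same 60-base sequence. On spot ABR8201 its levels were -2.24, -2.12, -1.61 and -2.61 on days 20-25, -2.68, -2.98, -3.13 and -2.72 on days 40-45, and -3.26, -3.14, -2.97 and -4.27 on days 150-160. The cyclic cows had -1.42, -1.50, -1.69 and -1.93, above all cows of days 40-45 and of days 150-160.

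Spot ABR8201 gave FGFR2 changes of -1.24 on days 40-45 (adjusted p = 0.0357) and -1.77 on days 150-160 (adjusted p = 0.00145), and of -1.26 for days 150-160 against days 20-25 (adjusted p = 0.0264). The days 40-45 call ended without any of 9 single cows, namely cyclic numbers 1, 2 and 4, days 20-25 numbers 1 and 2 and each of days 40-45, up to an adjusted p of 0.104. The call between stages ended without number 1, 2 or 3 of days 20-25 (adjusted p up to 0.0749), and the days 150-160 call against cyclic cows held without any single cow. The other spot, ABR7075, which represents the gene in the list counts because its mean signal is higher, gave -1.23 (adjusted p = 0.385) and -1.80 (adjusted p = 0.0901). On ABR7075 too every cow of days 150-160 (highest -2.60) lay below every cyclic cow (lowest -1.67). ABR7075 read -5.18 in the cow with number 4 of days 20-25, where ABR8201 read -2.61, and its SD on days 20-25 was 1.82. FGFR3 and the adaptor FRS2 were not called in any stage against cyclic, and FGFR4 was not tested.

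Of the other FGF ligands, FGF4 and FGF12 were tested and neither was called (0 of 2 by limma, and 0 at an unadjusted p under 0.05 in each stage). FGF5, FGF8 and FGF10 were on the array and not tested. Among genes that respond to FGF signalling, EGR1, an immediate early transcription factor, was called higher on days 150-160, at -4.64 ± 0.65 against -5.73 ± 0.24 in cyclic cows (SD, n = 4 each). Its change was 1.09 (adjusted p = 0.0217). The call ended without cyclic number 1 or 4 or days 150-160 number 1 or 4, with changes of 0.90 to 1.04 and adjusted p-values up to 0.0589. SPRY2 and SPRY4, feedback inhibitors of receptor tyrosine kinase signalling, changed by 0.44 (adjusted p = 0.291) and 0.71 (adjusted p = 0.0922) in that stage.

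FGF ligands are held at the cell surface by heparan sulfate, and 2 enzymes that build it were called lower on days 150-160, of 9 tested genes of FGF export and storage, whose median change was 0.175. That is beside 3.32% of all probes called lower. NDST1, which sulfates the chain, averaged 0.23 ± 0.09 on days 150-160 and 0.84 ± 0.12 in cyclic cows (SD, n = 4 each), a change of -0.60 (adjusted p = 0.00808). Against days 20-25 its change was -0.77 (adjusted p = 0.00504), and beside FGFR2 on spot ABR8201 it was the single listed pathway gene called in that comparison. EXT2, of the enzyme pair that lengthens the chain, averaged 2.88 ± 0.09 on days 150-160 and 3.40 ± 0.15 in cyclic cows, a change of -0.51 (adjusted p = 0.0223) that did not pass without cyclic number 1, 2 or 4 or days 150-160 number 2 or 4 (adjusted p 0.0502 to 0.0578). EXT1, the other enzyme of that pair, had changes of 0.566 on days 20-25 and 0.175 on days 150-160 and was not called. S100A13, a partner of FGF1 in its non-classical release, was not called in any stage.

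The VEGF receptor FLT1 was higher on days 150-160, like its ligand. It averaged -4.30 ± 0.43 on days 20-25, -4.23 ± 0.44 on days 40-45 and -3.88 ± 0.36 on days 150-160, against -5.30 ± 0.66 in cyclic cows (SD, n = 4 each). Its changes were 0.99 (adjusted p = 0.194), 1.06 (adjusted p = 0.125) and 1.42 (adjusted p = 0.0157), and its second probe was not tested. KDR, the main signalling receptor for VEGFA, was not called on either of its probes, which differed in direction. On days 20-25, 40-45 and 150-160 it changed by 0.422, 0.235 and 0.121 on ABR2024, its brighter probe. On ABR1800 it changed by -0.379, -0.114 and -0.198. VEGFB, VEGFC and PGF, the related ligands, changed by 0.02, -0.44 and 0.33 on days 150-160 (adjusted p 0.951, 0.196 and 0.755), and VEGFD was not tested.

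None of the 5 tested genes of the norrin receptor complex was called in any stage against cyclic by limma, nor had one an unadjusted p under 0.05. LRP5, the co-receptor, changed by 0.01, -0.26 and -0.53 on days 20-25, 40-45 and 150-160 (adjusted p 0.988, 0.80 and 0.34). TSPAN12 changed by 0.84, 1.11 and -0.15, with an SD of 1.25 in cyclic cows. FZD4, the receptor of norrin, was well above background on 1 array of days 20-25 and 1 of days 150-160 and was not tested. TNFRSF19 and APCDD1, genes that respond to beta-catenin, were not called either.

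**Figure D3:**
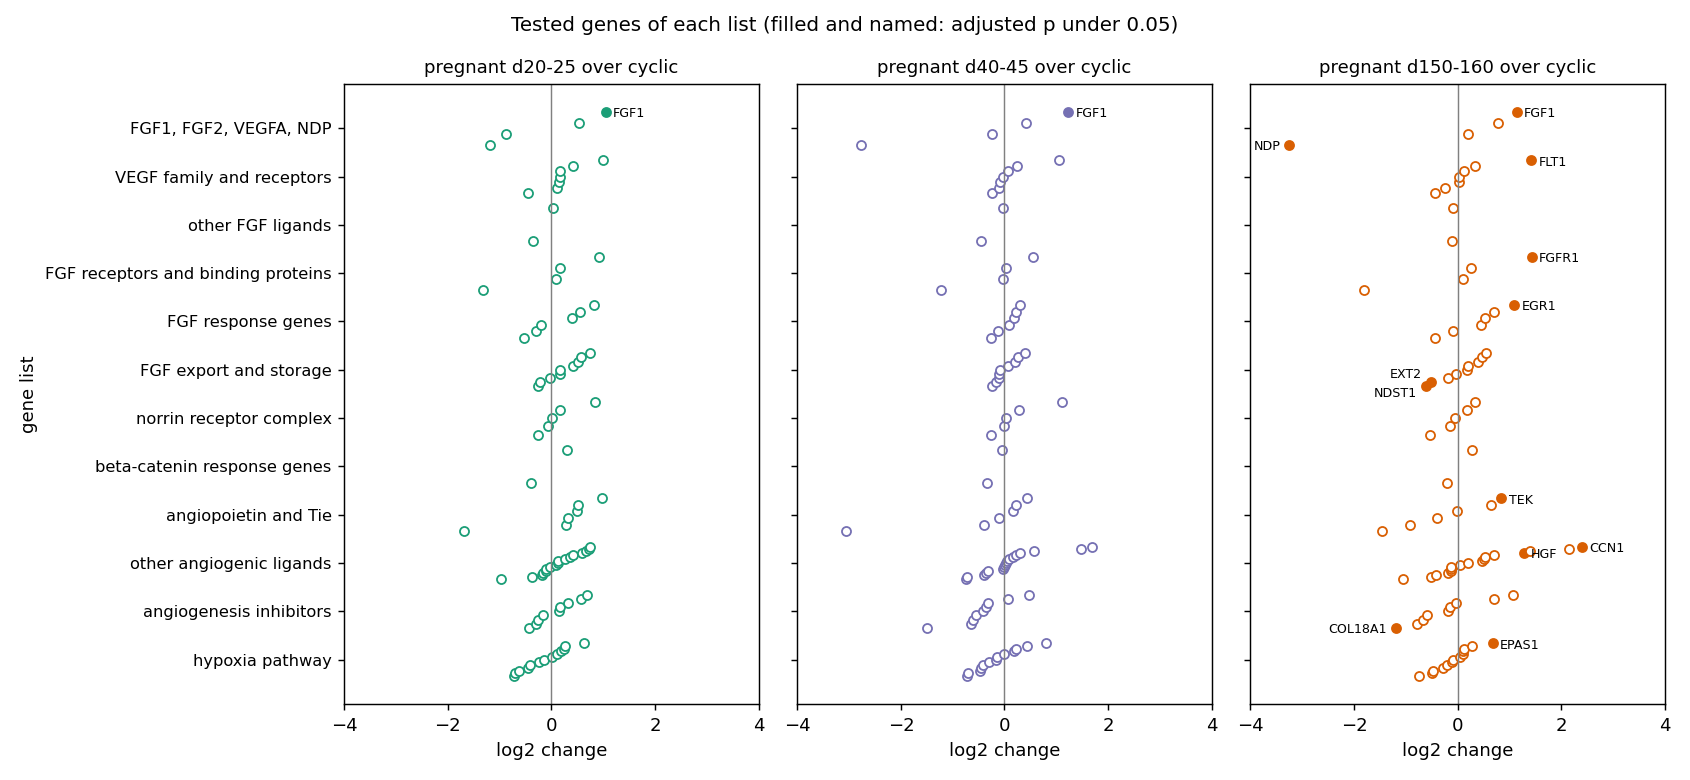
Log2 change against cyclic cows for every tested gene of the ligand and pathway lists (cell type markers are not drawn unless they are also in one), 1 panel per pregnancy stage; filled, named points have an adjusted p under 0.05 and each gene is shown by its brightest probe. Named points beyond FGF1 appear on days 150-160 alone, where 7 further genes lie to the right and 3 to the left of 0 beside NDP.

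Of the angiopoietin and Tie list 1 of 6 genes was called on days 150-160, beside 7.97% of all probes. It was TEK, the angiopoietin receptor of endothelium, with a change of 0.85 (limma adjusted p = 0.0351). The TEK call ended without cyclic number 1, 3 or 4 or days 150-160 number 2, up to an adjusted p of 0.0953 (change 0.74) without cyclic number 4. ANGPTL4, a secreted lipase inhibitor, changed by -3.06 on days 40-45 and did not pass (adjusted p = 0.0563). Of 17 other angiogenic ligands 2 were called on days 150-160, again beside 7.97% of all probes. CCN1, a matrix-associated growth factor partner, averaged 1.69 ± 1.36 on days 150-160 and -0.72 ± 0.53 in cyclic cows (SD, n = 4 each), a change of 2.40 (adjusted p = 0.0363). HGF, the ligand of MET, changed by 1.28 (adjusted p = 0.0175), and it was well above background in 4 of 4 cows of days 150-160 and 2 of 4 cyclic cows. Without cyclic number 4 HGF was 1.16 (adjusted p = 0.0526), and with normexp it was 0.47 (adjusted p = 0.066). CCN1 did not pass without cyclic number 2, 3 or 4 or days 150-160 number 1, 2 or 4, with changes of 2.07 to 2.38 and adjusted p-values of 0.0679 to 0.102.

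Of 9 angiogenesis inhibitors, COL18A1, whose product holds the endostatin fragment, was called lower on days 150-160, beside 3.32% of all probes. It averaged -3.42 ± 0.51 on days 150-160 and -2.23 ± 0.13 in cyclic cows (SD, n = 4 each), a change of -1.19 (adjusted p = 0.0329) that did not pass without cyclic number 1, 2 or 4 or days 150-160 number 2, 3 or 4 (adjusted p 0.0537 to 0.0951). THBS1 and THBS2, the thrombospondins, were not called. Of 13 genes of the hypoxia pathway, which acts on VEGFA, 1 was called on days 150-160, beside 7.97% of all probes. EPAS1, the HIF-2 alpha subunit, was called higher there, with a change of 0.68 (limma adjusted p = 0.0293). The call ended without cyclic number 1 or 4 or days 150-160 number 1 or 4, with changes of 0.51 to 0.67 and adjusted p-values up to 0.0755. HIF1A and SLC2A1 were not called, and LDHA changed by -0.74 on days 150-160 (adjusted p = 0.0632).

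Some cell type markers also differed from cyclic cows. In whole-gland RNA, more cells of a type and more RNA per cell cannot be told apart. Of 13 endothelial markers 12 were higher on average on days 20-25, 12 on days 40-45 and 11 on days 150-160. Of all tested probes 57.2%, 52.2% and 52.7% were higher in these stages. KDR was counted by its brighter probe, and its other probe read lower in each stage. ENG, TEK and FLT1 were called higher on days 150-160, beside 4.65% of all probes called higher. TEK and FLT1 are the same calls as given above with the pathway lists. In that stage limma gave 8 of the 13 an unadjusted p under 0.05, beside 23.5% of all probes. No endothelial marker was called on days 20-25 or 40-45, where limma gave 8 and 3 with an unadjusted p under 0.05, beside 14.1% and 14.7% of all probes. The summed level of the 13 markers was 5.13 to 5.56 on days 20-25, 4.91 to 5.37 on days 40-45 and 5.04 to 5.89 on days 150-160, against 4.33 to 5.03 in cyclic cows. The list also held PECAM1, CDH5, VWF and KDR, which were above background in all groups and not called. The part of endothelial content in the FGF1, VEGFA and FLT1 results was not tested.

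Fibroblast markers were lower on days 150-160, with a summed level of 4.97 to 5.45, against 5.56 to 6.20 in cyclic cows. COL1A1, COL1A2 and COL3A1 were called lower there, 3 of 6 markers, beside 3.32% of all probes. Without the cyclic cow with number 2 only 1 of the 6 was called. The COL1A2 call held without any single cow, while that of COL1A1 ended without any of 10 cows and that of COL3A1 without any of 5. The summed leukocyte level was -0.11 to 0.09 on days 20-25, -0.70 to -0.31 on days 40-45 and -0.55 to 0.53 on days 150-160, against -0.02 to 1.33 in cyclic cows. Of 7 tested leukocyte markers, 2, 1 and 4 were higher on average on days 20-25, 40-45 and 150-160. Their median changes were -0.44, -0.61 and 0.06. CD68, of macrophages, was the single one called, beside 1.23% and 7.97% of all probes called on days 40-45 and 150-160. It was lower on days 40-45 (-1.32, limma adjusted p = 0.0223) and on days 150-160 (-1.57, adjusted p = 0.00277). The days 40-45 call ended without cyclic number 2 (adjusted p = 0.0665) or days 40-45 number 1, 2 or 4 (adjusted p 0.0585 to 0.0796). The part of these cell types in the NDP result was not tested. Steroidogenic and pericyte markers held no called gene in any stage (0 of 6 and 0 of 5 by limma, with at most 1 of each list at an unadjusted p under 0.05), and 1 of 4 red blood cell markers was tested.

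**Figure D4:**
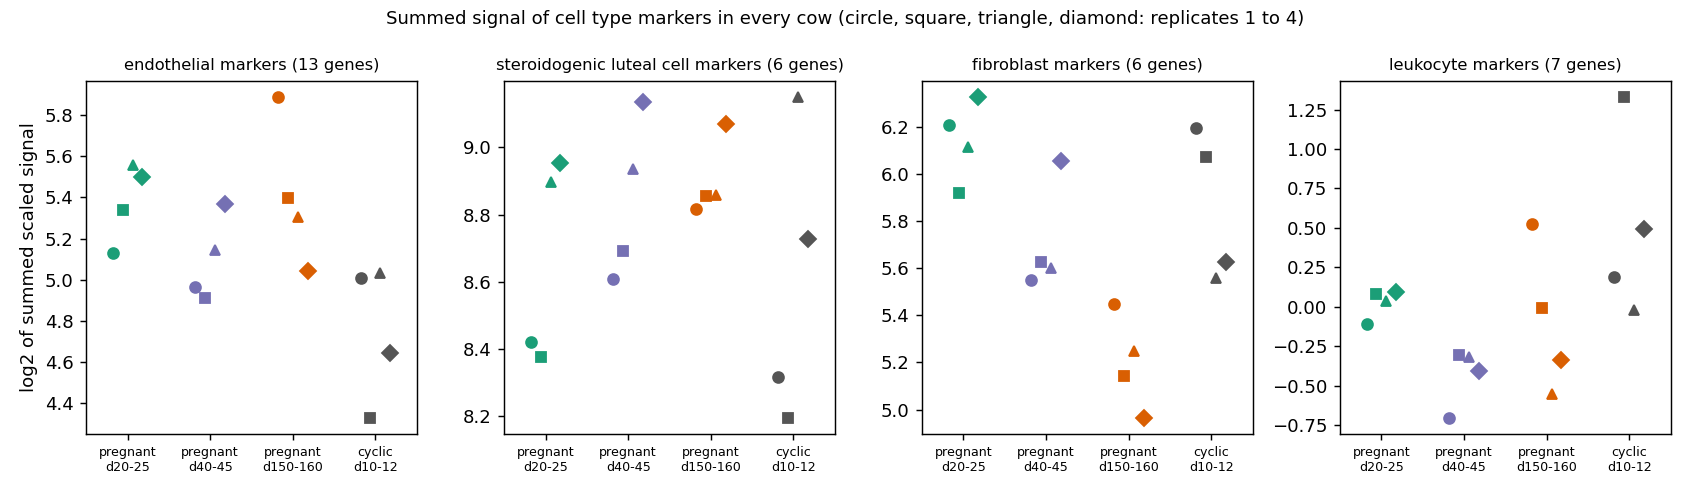
Log2 of the summed scaled signal of 4 marker lists in every cow, with the pregnancy stages from left to right and the cyclic cows at the right; each symbol is 1 cow. Endothelial sums of cyclic cows lie at 4.33 to 5.03, fibroblast sums are lowest on days 150-160, and the cyclic cow with number 2 (square) has the lowest endothelial and the highest leukocyte sum.

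For each ligand the 5 genes with the most similar pattern over the 16 arrays were listed among 5666 genes, by Pearson's r as a description. For FGF1 they included NFU1 (0.906), PCMT1 (0.888), SOCS2 (0.841) and PTDSS1 (0.841). For FGF2 they included MT2A (0.867), F2RL1 (0.802), ARHGEF3 (0.791) and TMEM79 (0.775). For VEGFA on ABR7080 they were RABEPK (0.83), GNAT1 (0.814), LRRC17 (0.805), OCLN (0.803) and LDB2 (0.801), and on ABR7085 CD81 (0.877), GNAT1 (0.820), IGFBP6 (0.809), SLCO2A1 (0.807) and LMO1 (0.806), so that GNAT1 stood in both lists. For NDP they were HSD11B2 (0.894), PABPC1 (0.886), GATM (0.884), DDX10 (0.878) and SOX4 (0.875). No gene stood in the lists of 2 different ligands.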

How the data were processed

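Each of the 16 cows gave 1 single-colour Cy3 array, read by the authors with Agilent Feature Extraction 9.5, per the submitters' processing notes. The intensity used is the processed signal of the deposited scanner files, background-subtracted and detrended per the file headers. The series' deposited value table holds log2 values, which equalled log2 of the processed signal minus 1 constant per array, with a largest departure of 0.0046, and column medians of -3.18 to -2.98, so its scale and centring are known. Array precision is limited by the number of cows.

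Each array was scaled to its 75th percentile, then log2 transformed. Of 15744 spots, 536 controls and 36 outlier-flagged readings were left out. A probe was tested when well above background on at least 3 of 4 arrays of a group, which kept 11943 of 15208. limma 3.58.1 in R 4.3.3 fitted the 4 groups over all arrays. Symbols came from spot annotation and accessions through the ARS-UCD2.0 gene table (7028 probes, 6696 symbols), used for names only, with no genome coordinates. Of several probes, the one with the highest mean signal stands for a gene in the lists. Named genes are the 4 ligands, every called gene of the lists, otherwise up to 4 of a list with the smallest F test p, and the 5 most alike genes, of which 1 each for FGF1 and FGF2 is not reported here; others named were chosen after their values were seen. The members and lists were chosen with earlier results of these data known. Replicate numbers were not used to pair cows, and the slide was not a term of the main fit. Between arrays of different groups, deviations from the group mean had a mean r of 0.108 (0.001 to 0.291) for the same number. It was 0.064 for other numbers on the same slide and -0.086 across slides. The limma steps were checked on simulated data. Alternatives covered background, normalisation, dim-probe filter, slide, replicate block, samples fitted and single cows left out.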

Additional observations from a re-analysis of the deposited data

Results flagged for a closer look

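Of 80 groups of 4 cows examined for a value standing far from the others, 2 were set aside for a closer look, where chance gives about 1 in 20. VEGFA on probe ABR7080 was at -0.72 in the cow with number 3 of days 150-160, whose 3 companions lay between -0.22 and -0.21, so that nearly all of the group's range is the gap to that cow. COL18A1, the gene of the collagen that holds endostatin, was at -3.51 in the cow with number 4 of days 20-25, while the other 3 lay between -2.32 and -2.08. The causes were not tested.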

How the results depend on the processing

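The FGF1 changes kept their sign in all 3 stages against cyclic under all 28 alternatives run, and the calls of days 40-45 and 150-160 ended only within single slides, where 2 cows a group remain. Some settings use fewer samples or fewer tested probes, as their names say. The causes of the differences between settings were not tested. Dim signal limits NDP, which was not well above background on 2 arrays of days 150-160. The second FGF2 probe and FZD4 were too dim to test.

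FGF1 on days 20-25 against cyclic was 1.02 with median scaling, 1.06 and 1.04 within slides 1 and 2 and 1.05 with only the groups compared, and 0.96 to 1.17 without single cows. Within slides 1 and 2 FGF1 was 1.42 and 1.04 on days 40-45 and 1.05 and 1.23 on days 150-160. The small FGF1 differences between stages changed sign: days 40-45 against 20-25 was -0.005 within slide 2, days 150-160 against 40-45 was 0.20 within slide 2 and -0.20 to 0.082 without single cows, and days 150-160 against 20-25 was -0.016 within slide 1 and -0.003 to 0.26 without single cows.

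FGF2 was -0.67 to 0.15 on days 40-45 and -0.23 to 0.58 on days 150-160 against cyclic without single cows, and -0.034 on days 150-160 within slide 2. VEGFA on ABR7080 was 0.54 to 0.95 on days 150-160 without single cows and passed without either of 2 of them, and its difference between days 40-45 and 20-25 was -0.26 to 0.003. VEGFA on ABR7085 on days 150-160 kept 0.89 and lost its call without the dim-probe filter (adjusted p = 0.0587) and with only the groups compared (0.138), was 1.15 and 0.64 within slides 1 and 2, and 0.64 to 1.08 without single cows. Its days 40-45 against 20-25 difference was -0.005 with normexp, -0.015 within slide 2 and -0.12 to 0.16 without single cows.

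NDP on days 150-160 against cyclic was -1.71 with normexp, -4.76 and -1.74 within slides 1 and 2, -3.25 with only the groups compared (adjusted p = 0.0961) and -3.75 to -2.40 without single cows. On days 40-45 it was -3.28 to -1.93 without single cows and passed without 1 of them. On days 20-25 it was 0.13 within slide 2, and days 150-160 against 40-45 was 0.066 with normexp. Without single cows, alternatives chosen after seeing the data like those for FGFR2 spot ABR8201, FGF2 minus NDP was -0.141 to 0.994 on days 20-25 and FGF2 minus VEGFA -1.162 to 0.045 on days 150-160. None of the 18 differences passed, an outcome again largely set by the smallest possible p. Within slides 1 and 2 the differences of change were 1.75 and -1.11 for FGF2 minus NDP on days 20-25, 5.50 and 2.51 for FGF1 minus NDP and 3.93 and 1.15 for FGF2 minus NDP on days 40-45, and 5.19 and 1.71 for FGF2 minus NDP and 5.83 and 2.24 for VEGFA minus NDP on days 150-160.

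Counts over all probes moved more. For days 20-25 against cyclic they were 78 with the slide as a block, 5 and 6 within slides 1 and 2, 2 with only the groups compared and 4 to 85 without single cows. For days 40-45 they were 94 with normexp, 90 without the dim-probe filter, 51 and 12 within slides, 73 with only the groups compared and 63 to 226 without single cows. For days 150-160 they were 254 and 21 within slides, 315 with only the groups compared and 583 to 1104 without single cows. Days 40-45 against 20-25 gave 8 without the filter, 1 with probes well above background on all 16 arrays, 7 with the slide as a block, 0 within each slide, 0 with the replicate block, 7 with only the groups compared and 0 to 8 without single cows. Days 150-160 against 40-45 gave 9 with values raised to background, 9 from the deposited value table, 17 without the filter, 2 with probes well above background on all 16 arrays, 13 with the slide as a block, 1 and 0 within slides, 14 with the replicate block, 1 with only the groups compared and 2 to 19 without single cows. Days 150-160 against 20-25 gave 4 and 7 within slides, 118 with only the groups compared and 88 to 243 without single cows. The F test gave 42 and 12 within slides and 267 to 504 without single cows. Cows with the same replicate number also share a slide, so the replicate block takes in the slide. The replicate block changed no call of the 5 ligand probes.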

Other observations

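ERG, COL4A3, SFRP1 and CCN2 are each among the 4 genes of their list with the smallest F test p, and none passed against cyclic cows. ERG, an endothelial transcription factor, was between -3.53 and -3.45 on days 20-25, above the -4.15 to -3.94 of cyclic cows, with a log2 difference of 0.57 that did not pass (limma adjusted p = 0.0864). COL4A3, whose product holds the tumstatin fragment, averaged -3.94 ± 0.33 on days 40-45 and -2.43 ± 0.65 in cyclic cows (SD, n = 4 each), a log2 difference of -1.50 (adjusted p = 0.101). SFRP1, a secreted inhibitor of Wnt signalling, had log2 differences from cyclic cows of 0.57, -0.31 and -0.66 on days 20-25, 40-45 and 150-160 (adjusted p 0.515, 0.808 and 0.337). CCN2, a matrix protein related to CCN1, averaged 4.23 ± 0.76 on days 150-160 and 2.84 ± 1.35 in cyclic cows, a log2 difference of 1.40 (adjusted p = 0.136).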
